A study of Mus musculus with 4 samples.

Results

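Six-family, Eya and Dach genes are the mouse relatives of the fly eye genes sine oculis, eyes absent and dachshund. The 9 genes described here were Six2, Six4, Six5, Eya1, Eya2, Eya3, Eya4, Dach1 and Dach2, taken by symbol from a table of 24771 features, and other Six-family genes were not analysed here. Six-family proteins are homeodomain transcription factors that bind DNA. Eya proteins do not bind DNA themselves and join Six-family proteins as co-activators and as protein tyrosine phosphatases, and Dach proteins are nuclear factors related to Ski that mostly act as co-repressors. The network is known from the cranial placodes, the thickenings of head ectoderm that give rise to the lens, the nose, the inner ear and cranial sensory neurons, and its members are also used in muscle progenitors, head mesenchyme and kidney.

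RNA-seq compared 2 samples of PSC-derived SG placodes with 2 samples of submandibular glands (SMGs) of E12.5 mouse embryos. The placodes were aggregates of mouse embryonic stem cells, with 3000 cells seeded in each well, 2% Matrigel in the medium, 2 ng/ml BMP4 on day 3, 25 ng/ml bFGF and 1 μM retinoic acid (RA) on day 4 and 200 ng/ml FGF10 from day 6, and they were collected on day 10. All placodes sequenced were made from 1 embryonic stem cell line. The embryonic SMG is epithelium together with the surrounding mesenchyme, vessels and nerves, and how the glands were dissected, the strain of the embryos and the number pooled per sample are not given in the sources used here. Nothing states that the 2 samples of a group came from separate cultures or litters, so p-values measure only the spread between these samples, which may be technical. No batch or date is named, so a batch and the group cannot be told apart.

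Expression was given as FPKM, which divides a gene's fragments by its transcript length and by the mapped fragments of its sample, so levels can be compared between genes. The depth of the samples is unknown, so no counting error is given. The FPKM values of a sample summed to between 361963 and 384773. Differences are those of the group means of log2(FPKM + 1), placodes minus SMGs, which understate the ratio of FPKM where values are low. They were tested with limma over the 13193 features with a mean FPKM of at least 1, with Benjamini-Hochberg adjustment over all of them, and a gene is called different at an adjusted p below 0.05. With 2 samples a side, the smallest p of an exact permutation test is 0.333.

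All 9 genes had values above 0 in every sample, and their placode and SMG values did not overlap. Dach1, Dach2 and Eya1 were higher in both placode samples, and Six2, Six4, Six5, Eya2, Eya3 and Eya4 were lower. Dach2, with a mean FPKM of 0.944 over the samples, was not tested. Of the 8 genes tested, 2 were called higher and 6 lower in the placodes. Over all tested features, 35.7% were called higher and 40.4% lower, 76.2% in all, and the groups did not overlap for 88.4%, so a call alone sets none of these genes apart. At least 2-fold differences past the threshold were found for 2 genes higher (Dach1 and Eya1) and 3 lower (Six2, Six5 and Eya2), where 14.1% of all features were higher and 15.2% lower by as much, 29.4% in all. At a pseudocount of 0.1, 5 genes were lower by at least 2-fold, with Six4 at -1.45 and Eya4 at -1.10 besides these 3. The shares above are for a pseudocount of 1. Those at 0.1 were not computed, so the count of 5 cannot be set against them. The median absolute difference of the 8 genes was 1.30 on the log2 scale, against 0.55 over all tested features. Six2 and Six4 were below 1 FPKM in both placode samples and passed the minimum through their SMG values, so these counts and this median are descriptions.

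**Figure D1:**
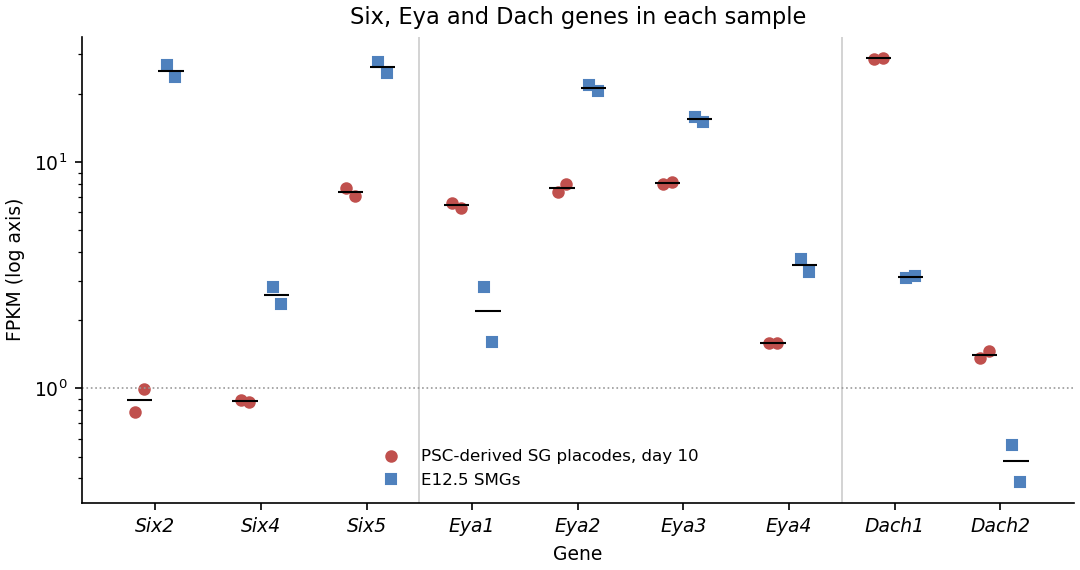
FPKM of each gene (log axis) in the 2 samples of PSC-derived SG placodes (circles) and the 2 samples of E12.5 SMGs (squares), with black lines at the group means and a dotted line at 1 FPKM. Six2 averaged 25.3 in the SMGs and 0.891 in the placodes, and Dach1 stood at 28.8 in the placodes against 3.12. No gene had overlapping groups, and neither did 88.4% of all tested features.

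The levels were ordered differently in the groups. In the SMGs, Six5 and Six2 were the most abundant and overlapped each other, followed by Eya2, Eya3, Eya4 and Dach1, which were each apart from the next. Six4 and Eya1 came next and overlapped, and Dach2 was the lowest. In the placodes, Dach1 was far above the rest. Eya3 and Eya2 overlapped, as did Eya2 and Six5, and below them Eya1, Eya4 and Dach2 were each apart from the next. Six2 and Six4 were the lowest in the placodes and overlapped.

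Among the DNA-binding members, Six2 differed most. Six2 maintains nephron progenitors in the kidney and is also expressed in head mesenchyme, and its gene (ENSMUSG00000024134) lies on chromosome 17 of GRCm38 from 85684277 to 85688274 on the minus strand. It measured 0.786 and 0.996 FPKM in the placodes and 26.8 and 23.8 in the SMGs, means of 0.891 ± 0.149 and 25.3 ± 2.13 (SD, n = 2 each) and 28.4 times higher in the SMGs by their ratio. The placode samples were both below 1 FPKM, and both SMG samples were above 20. Among features above 0, its level stood at percentiles 25.8 and 28.2 of the placode samples and 83.7 and 81.8 of the SMG samples. The log2 difference was -3.80 (standard error 0.10, limma adjusted p = 7.86e-07), and only 0.629% of tested features had a lower one.

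Six5, whose gene follows the myotonic dystrophy kinase gene Dmpk on chromosome 7, stood at an FPKM of 7.71 and 7.10 in the placodes against 27.9 and 24.8 in the SMGs. Its gene (ENSMUSG00000040841) runs from 19094594 to 19098549 on the plus strand and shared no exonic base with Dmpk or any other gene of GENCODE M21. The log2 difference was -1.70 (standard error 0.08, limma adjusted p = 6.70e-06). Six5 was thus lower in the placodes but, unlike Six2, kept an FPKM above 7 in both samples. Six4, a regulator of muscle genes, was low in all samples. It measured 0.891 and 0.874 FPKM in the placodes and 2.82 and 2.37 in the SMGs, a log2 difference of -0.93 (standard error 0.12, limma adjusted p = 4.84e-04). Without SMG sample 2, it was -1.02.

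The bases before the starts of Six2 and Six5, the most abundant of the listed Six-family genes in the SMGs, are printed below from RefSeq's annotation of GRCm38.p6, 250 bases each on the strand of the gene. Capitals mark matches, on either strand, to the GC box GGGCGG and the CCAAT box.
Six2 promoter, chr17:85688255-85688504, minus strand: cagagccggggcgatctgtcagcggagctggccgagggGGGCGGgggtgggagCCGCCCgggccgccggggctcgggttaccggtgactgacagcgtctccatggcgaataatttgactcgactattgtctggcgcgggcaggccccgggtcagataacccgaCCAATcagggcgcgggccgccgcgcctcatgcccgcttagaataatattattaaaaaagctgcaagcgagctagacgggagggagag
Six5 promoter, chr7:19094294-19094543, plus strand: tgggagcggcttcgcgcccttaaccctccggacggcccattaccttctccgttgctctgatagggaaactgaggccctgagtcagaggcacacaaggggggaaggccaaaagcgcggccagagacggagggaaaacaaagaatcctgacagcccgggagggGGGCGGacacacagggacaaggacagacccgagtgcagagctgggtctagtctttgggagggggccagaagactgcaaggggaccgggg
Six2 held 2 GC boxes and 1 CCAAT box, and Six5 held 1 GC box. A GC box was found in 32.7% and a CCAAT box in 33.8% of 32817 upstream windows of the same length. The windows of Six2 and Six5 were 64.8% and 62.8% G or C, against a median of 52.4%. Such windows were given for 7 of the 9 genes, not for Eya1 and Eya2, with 10 windows in all, since some genes have more than 1 start. The MEF3 motif TCAGGTT, a sequence bound by Six-family proteins in muscle genes, was found in 1 of the 10, a window of Six4, and in 3.50% of all windows. The half-site AGGTCA of RA receptors was found in 0 of the 10 and in 14.0% of all windows. These matches are descriptions of the letters and not of binding.

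Of the co-activator genes, Eya1 was higher in the placodes and Eya2, Eya3 and Eya4 were lower. Eya1 (ENSMUSG00000025932), a gene of ear, kidney and branchial arch development, lies on chromosome 1 of GRCm38 from 14168954 to 14310235. It measured 6.58 and 6.31 FPKM in the placodes and 2.82 and 1.60 in the SMGs, with means of 6.44 ± 0.194 and 2.21 ± 0.862 (SD, n = 2 each). The SMG samples differed from each other more for Eya1 than for any other of the 9 genes, by 0.55 on the log2(FPKM + 1) scale, yet both stayed below the placode samples. The log2 difference was 1.24 (standard error 0.18, limma adjusted p = 1.07e-03), and it was 0.96 without SMG sample 2 and 1.52 without SMG sample 1, so whether it reached 2-fold on this scale depended on which SMG sample was left out. The placode mean was 2.29 times the FPKM of SMG sample 1 and 4.03 times that of sample 2, and at a pseudocount of 0.1 the log2 difference was 1.55.

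Eya2 (ENSMUSG00000017897), on chromosome 2 from 165595032 to 165771727, was the most abundant Eya gene of the SMGs. It measured 7.41 and 8.03 FPKM in the placodes against 21.9 and 20.7, a log2 difference of -1.36 (standard error 0.07, limma adjusted p = 1.06e-05). Eya3 and Eya4 were lower in the placodes by less than 2-fold on this scale. Eya3, the most broadly expressed of the family, stood at an FPKM of 7.99 and 8.18 in the placodes and 15.8 and 15.1 in the SMGs, and its log2 difference was -0.86 (limma adjusted p = 5.75e-05). Eya4, a gene of hearing and of heart muscle, was at 1.58 and 1.59 against 3.75 and 3.28, with a log2 difference of -0.80 (limma adjusted p = 6.70e-04). On this scale, neither Eya3 nor Eya4 was set far apart from the bulk of features, since 34.5% and 36.8% of them differed by more. At a pseudocount of 0.1, Eya3 was at -0.93 and Eya4 at -1.10, and such shares were not computed there.

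Both co-repressor genes were higher in the placodes. Dach1 (ENSMUSG00000055639), expressed in the embryonic neural tube, eye and limb, spans 382913 bases of chromosome 14 from 97786853 to 98169765. It measured 28.8 and 28.9 FPKM in the placodes and 3.09 and 3.15 in the SMGs, means of 28.8 ± 0.119 and 3.12 ± 0.0462 (SD, n = 2 each) and 9.24 times higher in the placodes by their ratio. The samples of each group were almost equal, and all values of one group lay far from those of the other. Among features above 0, its level stood at percentiles 84.7 and 84.9 of the placode samples and 40.8 and 42.0 of the SMG samples. The log2 difference was 2.86 (standard error 0.07, limma adjusted p = 4.99e-07), at percentile 97.0 of all tested features, and 5.06% of features differed by more in either direction. Dach2, on the X chromosome, is its closest relative. It measured 1.36 and 1.46 FPKM in the placodes against 0.564 and 0.387, and the SMG samples were both below 1. In a fit of 20464 features without a minimum, its log2 difference was 0.71 (standard error 0.11, limma adjusted p = 5.22e-03). Of those features, 11894 were called different.

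The window before Dach1, the listed gene that was highest in the placodes, is given in the same way, and held 0 matches to any of the 5 motifs searched, the TATA box TATAAA included, which was found in 12.4% of all windows.
Dach1 promoter, chr14:98169766-98170015, minus strand: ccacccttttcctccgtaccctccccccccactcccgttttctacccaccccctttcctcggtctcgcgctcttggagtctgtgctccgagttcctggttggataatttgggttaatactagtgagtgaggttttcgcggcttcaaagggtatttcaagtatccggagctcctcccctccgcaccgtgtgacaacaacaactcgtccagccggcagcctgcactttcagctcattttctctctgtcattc
It was 54.8% G or C.

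**Figure D2:**
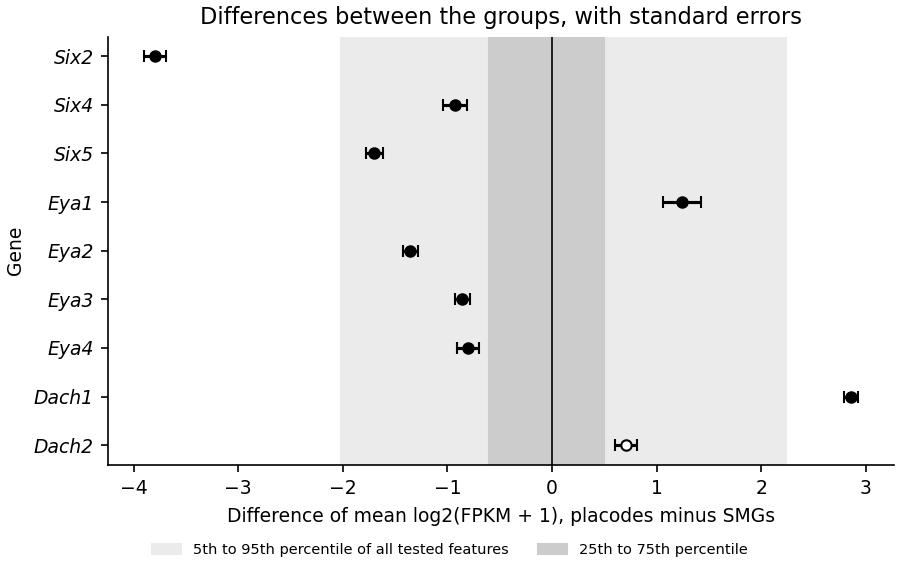
Differences of mean log2(FPKM + 1), placodes minus SMGs, with standard errors, for each gene. Filled points were tested at a mean FPKM of at least 1, the open point is Dach2 from the fit without a minimum, and grey bands give the 5th to 95th and 25th to 75th percentiles of all tested features. Six2 and Dach1 lay outside the wider band, at -3.80 and 2.86.

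Reads could in principle be shared between related genes, so the transcripts of GENCODE M21 were searched for sequence in common. None of the 9 genes shared a run of 50 bases with another of the 9. Between 0% and 1.03% of the 50-base runs of a gene's transcripts occurred in transcripts of any other gene, the highest share being that of Six2. On GRCm38, Six4 (ENSMUSG00000034460) lies on chromosome 12 from 73099609 to 73113456, Eya3 (ENSMUSG00000028886) on chromosome 4 from 132638987 to 132724765 and Eya4 (ENSMUSG00000010461) on chromosome 10 from 23102963 to 23350786. Dach2 (ENSMUSG00000025592) lies on chromosome X from 113297510 to 113836386. No other annotated gene overlapped an exon of any of the 9 or started within 5 kb of its start.

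Summed FPKM changed in different directions for the families. The 3 listed Six-family genes summed to 9.39 and 8.97 in the placodes and 57.5 and 51.0 in the SMGs, 5.91 times higher in the SMGs. The 4 Eya genes summed to 23.6 and 24.1 against 44.3 and 40.7, and the 2 Dach genes to 30.1 and 30.4 against 3.65 and 3.54. Among the listed genes, the Dach sum was thus the highest of the 3 in the placodes and the lowest in the SMGs, and that of the 3 Six-family genes was the lowest in the placodes and the highest in the SMGs. Six-family genes not listed are outside this sum.

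The makeup of the families differed as well. Six5 made up 82.1% and 79.2% of the listed Six-family sum in the placodes, against 48.5% and 48.7% in the SMGs, where Six2 held 46.6% and 46.7%. Eya1 made up 27.9% and 26.2% of the Eya sum in the placodes and 6.36% and 3.93% in the SMGs. The share of Eya2 was 31.4% and 33.3% in the placodes and 49.5% and 50.8% in the SMGs. The share of Eya3 was close in all samples, at 33.9% and 33.9% in the placodes and 35.6% and 37.2% in the SMGs. Eya2 had 1.13 and 1.27 times the FPKM of Eya1 in the placodes, and 7.79 and 12.9 times in the SMGs. Dach1 made up 95.5% and 95.2% of the Dach sum in the placodes and 84.5% and 89.1% in the SMGs. With 2 samples per group, these shares were compared as values and not tested.

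**Figure D3:**
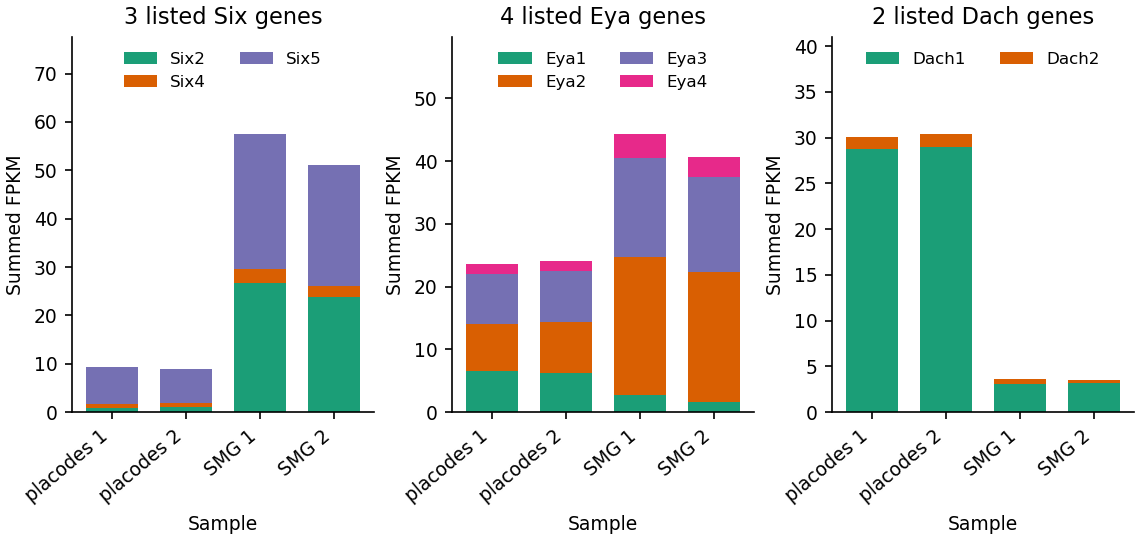
Stacked bars of FPKM, starting at 0, for the 3 listed Six-family genes, the 4 Eya genes and the 2 Dach genes in each sample. The Six-family sum was 9.39 and 8.97 in the placodes against 57.5 and 51.0 in the SMGs, and the Dach sum was 30.1 and 30.4 against 3.65 and 3.54.

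Six-family, Eya and Dach proteins act with other nuclear proteins, and 15 genes of such partners were followed. All 15 were tested, of which 9 were called higher and 4 lower in the placodes. Among all tested features, 35.7% were called higher and 40.4% lower, 76.2% in all, so the count alone does not set the partners apart. Their median difference was 0.25 on the log2 scale against -0.05 over all tested features. Skil, which encodes a relative of Dach and Ski, stood at an FPKM of 26.5 and 28.0 in the placodes against 9.64 and 9.05, a log2 difference of 1.45 (limma adjusted p = 5.24e-06). Ski itself was lower, at 25.4 and 24.5 against 49.8 and 49.6, by a log2 difference of -0.97 (limma adjusted p = 8.68e-06). The Tle genes, which encode co-repressors of the Groucho family that bind Six-family proteins, also differed in direction. Tle1 had a log2 difference of 1.41 (limma adjusted p = 1.38e-05), whereas Tle2 was at 0.816 and 1.21 FPKM in the placodes against 34.3 and 34.7, a log2 difference of -4.15 (limma adjusted p = 6.99e-07).

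Genes described as targets of Six-family and Eya proteins in other tissues did not move together. Of 15 such genes, 11 were tested, 4 called higher and 7 lower, with a median difference of -0.48. Among all tested features, 35.7% were called higher and 40.4% lower. Of the 11, 1 was below 1 FPKM in both SMG samples and 2 in both placode samples. These passed the minimum through the other group, so the count and median are descriptions. The largest rise was that of Sall1, a zinc finger gene of kidney and neural development, with an FPKM of 33.4 and 34.1 in the placodes against 0.154 and 0.0893. Ezr, which encodes ezrin, was at 88.1 and 86.7 against 27.6 and 27.3. The lowest differences were those of Fgf10, the mesenchymal ligand that drives salivary bud growth, and of Myog, the muscle regulator. Fgf10 stood at an FPKM of 0.465 and 0.123 in the placodes against 45.5 and 46.1. Myog was listed as 0 in each placode sample and stood at an FPKM of 28.3 and 21.2 in the SMGs.

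Other genes of the cranial placode network were taken in 3 groups. Of 10 genes of placode competence, 8 were tested, 2 called higher and 3 lower, against 35.7% and 40.4% of all tested features. Of the 8, 3 were below 1 FPKM in both placode samples and passed the minimum through the SMGs, so this count is a description. Irx1 was higher, at 50.9 and 48.2 FPKM against 18.5 and 14.9, as was Gata2, with a log2 difference of 0.99 (limma adjusted p = 2.19e-04). Dlx5 and Dlx6 were lower. Dlx5 stood at an FPKM of 0.393 and 0.0447 in the placodes against 7.66 and 8.91, and Dlx6 of 0.0873 and 0 against 5.64 and 3.97. Foxi3, a gene of the pre-placodal ectoderm, was listed as 0 in each placode sample and at 0.0287 and 0.264 in the SMGs.

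Of 13 genes of placode identity, 8 were tested, 7 called higher and 1 lower, with a median log2 difference of 4.45. The shares over all tested features were 35.7% higher and 40.4% lower. Of the 8, 6 were below 1 FPKM in both SMG samples and 1 in both placode samples, so they passed the minimum through the other group, and the 5 not tested were at most 0.202 FPKM in any sample. This count and median are therefore descriptions. Sox3 was at 72.5 and 69.1 FPKM in the placodes against 0.0761 and 0.242. Pax8, which marks the otic and epibranchial placodes but also neurons of the hindbrain and spinal cord, was at 42.1 and 41.4 and was listed as 0 in each SMG sample. Foxi2 and Foxe3, a lens gene, had an FPKM of 0 in every sample of either group. Oc90, which encodes an otoconial protein, had 0 in the placodes against 0.0329 and 0, so its groups overlapped. Gbx2, a gene of the otic placode and the hindbrain, was at 5.85 and 7.06 FPKM against 0 and 0.0735. Pitx3 was the gene called lower, at 0.131 and 0.394 FPKM against 5.46 and 4.03. Most of the genes called higher, such as Sox2, Sox3, Pax3 and Pax6, are also genes of the neural tube.

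Of 8 genes of placode-derived and other sensory or visceral neurons, all tested, 6 were called higher and 1 lower. The shares over all tested features were 35.7% and 40.4%. Of the 8, 5 were below 1 FPKM in both SMG samples and passed the minimum through the placodes, so this count is a description. Neurog1, the proneural factor of sensory neurons and spinal interneurons, stood at an FPKM of 41.5 and 45.7 in the placodes and was listed as 0 in each SMG sample. Neurod4 stood at an FPKM of 12.2 and 14.5 against 0.0190 and 0. Phox2a, a gene of visceral neurons, was at 5.40 and 4.48 against 6.57 and 5.72 and did not pass the threshold (limma adjusted p = 0.0778).

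**Figure D4:**
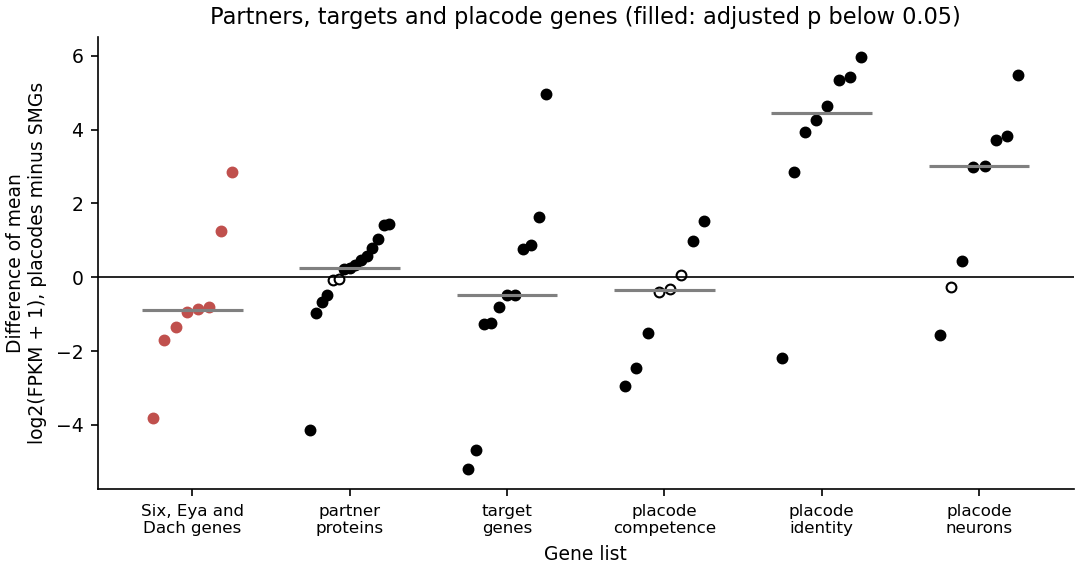
Differences of mean log2(FPKM + 1), placodes minus SMGs, for each tested Six-family, Eya and Dach gene and for tested genes of the lists of partners, targets, placode competence, placode identity and placode neurons. Filled points had a limma adjusted p below 0.05, open points did not, and grey lines are medians. The median was 4.45 for the tested placode identity genes and 0.25 for the partners.

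Six-family, Eya and Dach genes are used by several cell types, so markers of the types the samples could hold were measured beside them. In bulk samples, fewer cells of a type and less RNA per cell cannot be told apart. All 10 mesenchyme markers were called lower in the placodes, 1 of them below 1 FPKM in both placode samples. They summed to 204 to 208 FPKM in the placodes and to 2047 to 2089 in the SMGs. Of all tested features, 35.7% were called higher and 40.4% lower, and the counts of markers called are descriptions. Of 10 skeletal muscle markers, 7 of the 8 tested were called lower and Pax7, which the neural tube also expresses, was called higher. Of these 8, 6 were below 1 FPKM in both placode samples and passed the minimum through the SMGs. The 10 muscle markers summed to 14.5 to 15.9 FPKM in the placodes against 130 to 178 in the SMGs. Without Pax7, the other 9 summed to 3.01 to 3.14 FPKM in the placodes and 129.4 to 177 in the SMGs. Myog, Myf5, Mymk and Myf6 were listed at 0 in both placode samples. Thus Six2, Six4, Six5, Eya2, Eya3 and Eya4 were lower in the samples in which mesenchyme and muscle markers were lower. The sums of salivary epithelium and endothelium markers, given below, were lower in the same samples. With 2 groups, a gene lower in the placodes goes with every such list. The part of any cell type in the difference was not tested.

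The neural markers were higher in the placodes, as were Dach1, Dach2 and Eya1. Of 10 neural progenitor and neuron markers, all of the 9 tested were called higher in the placodes. Of these 9, 3 were below 1 FPKM in both SMG samples and passed the minimum through the placodes. The 10 summed to 1022 to 1062 FPKM in the placodes against 103 to 112 in the SMGs. Olig2 was listed as 0 in each SMG sample. Of 10 salivary epithelium markers, 2 were called higher and 7 lower, and 4 of the 10 were below 1 FPKM in both placode samples. Sox9, a factor of epithelial progenitors that neural progenitors also express, was higher, at 42.1 and 43.0 FPKM in the placodes against 9.31 and 7.66 (log2 difference 2.20, limma adjusted p = 3.66e-06). Krt19, a keratin of ductal epithelium, was higher too, at 14.7 and 15.8 against 9.78 and 6.53 (log2 difference 0.85, limma adjusted p = 3.63e-03). Krt5, Krt14 and Krt15 were listed at 0 in both placode samples. These are defining markers of the basal salivary epithelium. Pitx1, an early oral ectoderm gene, was at 0.539 and 0.429 FPKM in the placodes against 245 and 253. The epithelial sums were 96.6 to 100.2 FPKM in the placodes and 599 to 630 in the SMGs. All 5 endothelium markers were lower, with sums of 9.20 to 9.75 against 101 to 107, and 4 of the 5 were below 1 FPKM in both placode samples. What part these cell types have in the differences of Dach1, Dach2 and Eya1 was not tested. Between the SMG samples, sample 1, with the higher muscle marker sum (178 against 130), also had the higher value for every listed gene but Dach1. Its mesenchyme (2089 against 2047), salivary epithelium (630 against 599) and neural sums (112 against 103) and its sum over all features (384773 against 373962) were higher as well. Its endothelium sum was lower (101 against 107). The part of any of these in the difference was not tested.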

How the data were processed

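Total RNA of 2 samples of PSC-derived SG placodes and 2 samples of E12.5 SMGs was sequenced as paired-end reads from libraries made with a NEBNext Ultra kit. The authors mapped the reads with HISAT2 and deposited expression per gene as FPKM. The submitters' processing notes name the builds GRCm38 and GRCh38, and the annotation, the quantifier and all versions are not given in the sources used here. The depth is unknown.

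Groups followed the sample titles. The transform was log2(FPKM + 1). A two-sided limma 3.58.1 fit (R 4.3.3, lmFit and trended eBayes, no covariate besides group) covered all features whose mean FPKM was at least 1, with Benjamini-Hochberg adjustment over the 13193 tested features. The fit was also run on simulated data in which few features were changed, whereas 76.2% of features were called here. That run checked the code and not the error rate in these data. Positions and transcripts came from GENCODE M21 (GRCm38), in which all 9 genes were found by identifier, and upstream sequence from RefSeq (GRCm38.p6). Figures were drawn with Python 3.11.15. Protein sequences were not used here.

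The 9 genes and the gene lists were chosen with earlier results of these data known. From each list, the pair of tested genes highest in the placodes and the pair lowest were named. A gene that this rule names is not reported here. Other list genes (Foxi3, Oc90, Foxe3, Foxi2, Sox2, Pax3, Pax6) were named after their values were seen, and cell type markers only where listed at 0 or called against their list, and Pitx1. Fgf10, Myog and Pax6 each stand in 2 lists. Alternatives were a pseudocount of 0.1, no minimum or a minimum of 5, TPM, median-ratio and quantile scaling, eBayes without trend, the replicate number as a block, and each sample left out.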

Additional observations from a re-analysis of the deposited data

How the results depend on the processing

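Each of the 8 tested genes kept its direction under every alternative in which it was tested. These were 12 alternatives for Six2, Six5, Eya2, Eya3 and Dach1 and 11 for Six4, Eya1 and Eya4. Where no sample was left out, each also kept an adjusted p below 0.05. In such fits at the minimum of 1, 9820 to 10098 of 13193 features were called, so a kept call sets none of these genes apart. The largest adjusted p-values were those of Eya1, 0.0413 and 0.0376 when placode sample 1 or 2 was left out. At a minimum mean FPKM of 5, only Six2, Six5, Eya2, Eya3 and Dach1 of the 9 genes were tested, 1 called higher and 4 lower. Of all 9679 features tested at that minimum, 3594 were called higher and 3866 lower, so these counts are descriptions. At that minimum, 1 placode competence gene was called higher and 0 lower, 0 placode identity genes were called lower, and 3 placode neuron genes were called higher. The Dach sum, whose samples were almost equal, had a log2 ratio of 3.13 under both TPM and median-ratio scaling, against 3.07 as deposited. The deviations of same-numbered samples from their group means had a correlation of -0.03 across the tested features. With 2 samples a side, this value cannot tell whether same-numbered samples were handled together, which is not stated. With the replicate block, 10043 features were called against 10049 without it, 2 of the 9 genes higher and 6 lower, and 2 placode neuron genes were called lower. The lone sample of a group, where 1 was left out, is assumed to vary like the others. Depth is unknown, so the smallest detectable FPKM cannot be given, which limits Dach2, Six2 and Six4 most.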
